A study of Mus musculus with 13 samples.

Results

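The 10 club and goblet cell secretory genes described here are Scgb1a1, Scgb3a1, Scgb3a2, Cbr2, Aldh1a1, Muc5b, Agr2, Hp, Gabrp and Tff2. They were taken by symbol from the 32544 genes of a count table of whole mouse lung, and all 10 were found. The lungs came from wild-type male C57BL/6J mice, 7 weeks old when bought, kept for 5 days either in 21% oxygen (normoxia, 7 libraries) or in 80% oxygen (hyperoxia, 6 libraries). All lungs were perfused with cold buffered saline before freezing. The RNA was read by Quant-seq, which sequences the 3′ end of polyadenylated transcripts. The labels give 1 library for each sample and do not say that each came from a separate animal, so the p-values measure the spread between these samples.

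Club cells are the secretory cells of the mouse airway, and goblet cells are its mucus-producing cells. Club cells release secretoglobins, small proteins that coat the airway surface, and they hold enzymes that act on aldehydes, ketones and inhaled chemicals. Goblet cells release gel-forming mucins together with trefoil factors, and need a disulfide isomerase to fold the mucins. Both cell types keep the airway surface covered, and club cells can also renew the ciliated cells beside them.

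In hyperoxia the transcript of Scgb1a1, the main secretoglobin of club cells, fell 7.79-fold, and those of Cbr2, Hp and Gabrp fell 2.23-fold to 2.70-fold. Agr2 did not pass the filter on low counts, and each of the other 9 genes had a negative log2 fold change. Of these 8 had an unadjusted edgeR p under 0.05. The share of all genes at that threshold was not counted, so the 8 cannot be read against a background. The test was edgeR's quasi-likelihood test with Benjamini-Hochberg adjustment over the 12496 genes that passed a filter on low counts, and a gene was called at an adjusted p of 0.05. Of the 9 genes tested, 4 were called lower and 0 higher, where 10.8% of all genes tested were called lower and 11.8% higher. The median log2 fold change was −1.17 over the 9 genes and −0.03 over all genes tested. The members were chosen with earlier results of these data known, so these comparisons are a description. Every hyperoxic library lay below every normoxic library for 3 of the 9 (Scgb1a1, Hp and Gabrp), and for 5.23% of all genes tested.

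The library Hyperoxia 1 stood apart, so the members' results are also given without it, and so are values of the other lists where a call rests on it. Its log2 CPM (counts scaled to a common library size, with TMM) correlated with those of the other libraries at 0.721 to 0.833, against 0.854 to 0.967 among the others. It held 2029006 counts, within the range of the 13 libraries, 1607111 to 4540288. Of its counts 0.944% came from the 13 mitochondrial genes, against 1.94% to 3.24% in the other libraries. Of the genes tested 601 had no count in it, against 8 to 77 in the others. It had the lowest hyperoxic value for 7 of the 9 genes tested. Without it 6 of the 9 genes were called lower (Scgb1a1, Hp, Gabrp, Cbr2, Scgb3a2 and Tff2) and 0 higher. The background also moved, with 13.3% of 12752 genes called lower, 15.2% called higher and 7.07% without overlap. The same 3 members had no overlap, and the median of the 9 was −1.06 against −0.0081 over all genes.

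**Figure D1:**
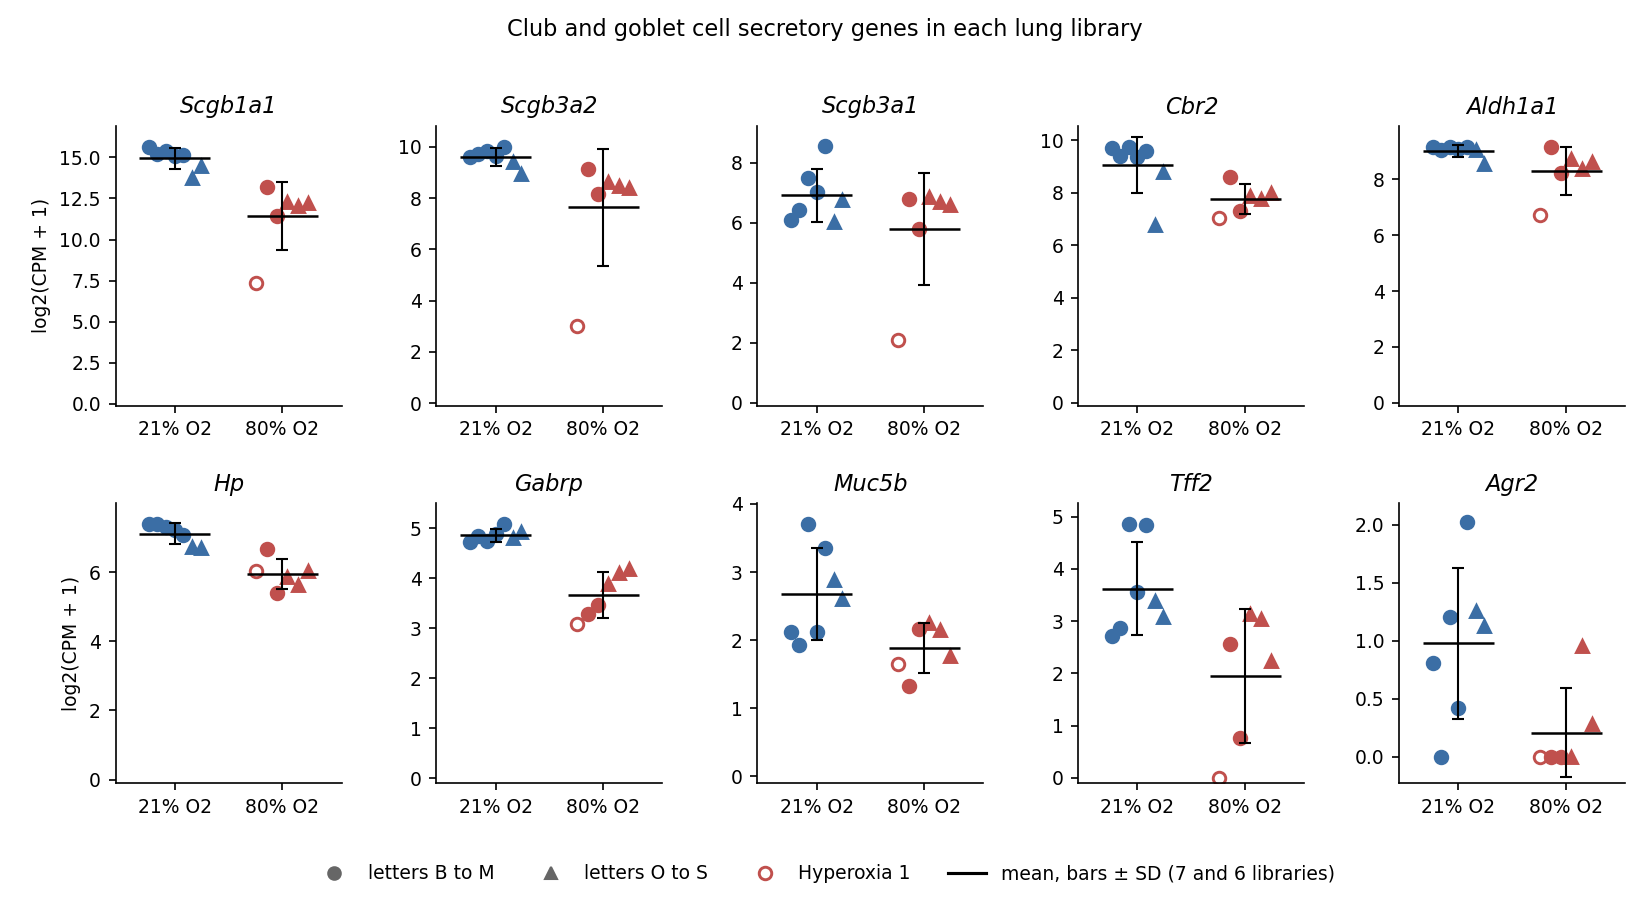
Level of each gene in each library as log2(CPM + 1), with 7 libraries at 21% oxygen and 6 at 80%; circles and triangles are the letter sets B to M and O to S of the library names, lines are means and bars SD. Scgb1a1, Hp and Gabrp have no overlap between the groups, and Hyperoxia 1 (open circle) is the lowest hyperoxic point for Scgb1a1, Scgb3a2, Scgb3a1, Cbr2, Aldh1a1, Gabrp and Tff2.

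Scgb1a1 encodes the club cell secretory protein. The gene lies at chr19:9083636-9087958 on the minus strand (GRCm38). Its level in normoxia was 13450 CPM at the lowest, 35400 at the median and 51500 at the highest. In hyperoxia it was 161.9 CPM in Hyperoxia 1, 2776 to 9239 CPM in the other 5 libraries, and 4475 at the median of all 6. No hyperoxic library reached the lowest normoxic library. The log2 fold change was −2.96 (SE 0.585, adjusted p = 0.00188), and −2.69 (SE 0.329, adjusted p = 1.76e-05) without Hyperoxia 1, which lay 17.1-fold below the next hyperoxic library. In a bulk sample of lung, fewer cells of a type and less RNA per cell cannot be told apart.

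Scgb1a1 took 3.43% ± 1.23 of all counts in normoxia (SD, n = 7) and 0.428% ± 0.297 in hyperoxia (n = 6), or 0.510% ± 0.243 in the 5 libraries without Hyperoxia 1. By counts it was the most-read gene in all 7 normoxic libraries. In hyperoxia it was still the most-read gene in Hyperoxia 2, stood at rank 2 to 21 in Hyperoxia 3 to 6, and at rank 1432 in Hyperoxia 1. The other 9 genes together took 0.231% ± 0.0543 of counts in normoxia and 0.105% ± 0.0484 in hyperoxia, or 0.120% ± 0.0349 without Hyperoxia 1. Among the genes tested, ordered from the most negative log2 fold change, Scgb1a1 stood at place 18. The other 8 members stood between places 228 and 2206.

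The library names carry letters that run from B to M for one set and from O to S for another, and both conditions occur in both sets. Normoxic Scgb1a1 was 34060 to 51500 CPM in the 5 libraries B to M, and 13450 and 22470 CPM in the 2 libraries O to S. Mean log2 CPM differed by −4.63 among B to M, by −2.97 there without Hyperoxia 1, and by −1.91 among O to S. What the letters stand for is not given, and the part of the sets in the level was tested only as a term in the fit, where the log2 fold change was −2.79 (adjusted p = 0.00615).

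Scgb3a2 encodes another secretoglobin of the airway. In normoxia it was read at 493.1 CPM at the lowest, 793.9 at the median and 1032 at the highest. In hyperoxia it was 6.97 CPM in Hyperoxia 1, 287.0 to 564.6 CPM in the other 5 libraries, and 343.8 at the median of all 6. Hyperoxia 2 lay within the normoxic range and the other 5 below it. The log2 fold change was −1.28 (SE 0.511, adjusted p = 0.0841) over 13 libraries and −1.01 (SE 0.190, adjusted p = 0.000829) without Hyperoxia 1. The SE was larger with Hyperoxia 1 in the fit, and the gene was called only without it among the 13 fits that each left out 1 library.

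Scgb3a1, also an airway secretoglobin, did not pass the test. The gene lies at chr11:49663610-49665118 on the plus strand. The normoxic libraries held 64.39 CPM at the lowest, 106.8 at the median and 373.7 at the highest, the last in Normoxia 5. In hyperoxia it was 3.22 CPM in Hyperoxia 1, 54.2 to 116.6 CPM in the other 5 libraries and 98.56 at the median of all 6. Of the 6 hyperoxic libraries 4 lay within the normoxic range. Its log2 fold change was −0.82 (95% interval −1.95 to 0.30, adjusted p = 0.296), and −0.56 (−1.35 to 0.23, adjusted p = 0.284) without Hyperoxia 1. Mean log2 CPM differed by −2.27 among the letters B to M, by −0.83 there without Hyperoxia 1, and by 0.33 among O to S.

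**Figure D2:**
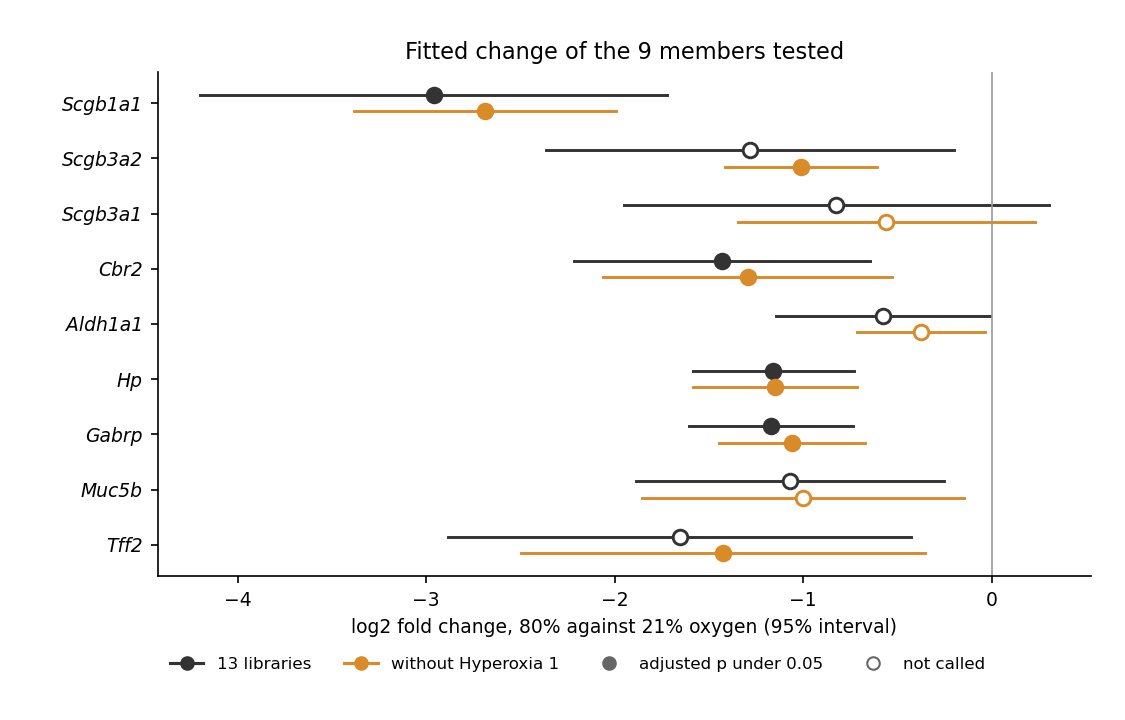
Fitted log2 fold change of hyperoxia against normoxia with its 95% interval for the 9 genes tested, over 13 libraries (dark) and without Hyperoxia 1 (orange); filled points passed an adjusted p of 0.05. All 9 points lie below 0 in both fits, 4 are filled with 13 libraries and 6 without Hyperoxia 1.

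The 3 secretoglobins were compared with each other by the log2 ratio of their counts (plus 0.5) within each library, which gives 3 ratios. The log2 ratio of Scgb1a1 to Scgb3a1 was 8.04 ± 0.941 in normoxia (SD, n = 7) and 5.67 ± 0.373 in hyperoxia (n = 6). All 6 hyperoxic libraries, Hyperoxia 1 included, lay below all 7 normoxic ones. The difference was −2.37 (two-sided exact permutation p = 0.00117, the smallest that 7 against 6 libraries allow, adjusted p = 0.0035). Without Hyperoxia 1 it was −2.34 (exact permutation, adjusted p = 0.00379).

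The log2 ratio of Scgb1a1 to Scgb3a2 was 5.35 ± 0.533 in normoxia and 3.81 ± 0.424 in hyperoxia. Of the 6 hyperoxic libraries 5 lay below all normoxic ones, and the exception was Hyperoxia 1 at 4.49, above Normoxia 6 at 4.33. The difference was −1.54 (exact permutation p = 0.00233, adjusted p = 0.0035), and −1.68 (adjusted p = 0.00379) without Hyperoxia 1. The log2 ratio of Scgb3a2 to Scgb3a1 was 2.69 ± 0.747 in normoxia and 1.86 ± 0.488 in hyperoxia. That difference of −0.83 (exact permutation, adjusted p = 0.0466) was −0.67 (adjusted p = 0.101) without Hyperoxia 1. These ratios cancel the library size.

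**Figure D3:**
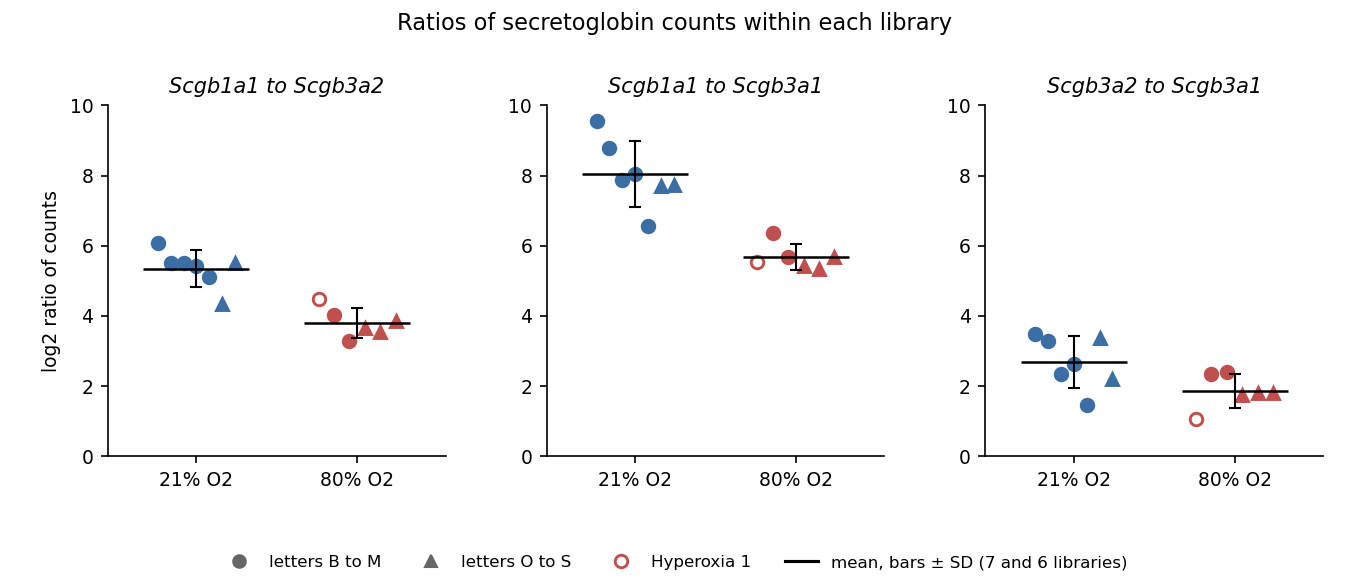
Log2 ratio of the counts of 2 secretoglobins within each library, by oxygen level, with means and SD; the markers are as in the plot of levels by library. The ratio of Scgb1a1 to Scgb3a1 separates the groups fully, with Hyperoxia 1 at 5.54 among the other hyperoxic libraries, which run from 5.33 to 6.38.

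Promoter sequences are shown for 3 members on chromosome 11, Cbr2 and Gabrp as genes that were called lower and Scgb3a1 as a gene that was not. Each runs from 250 bases before the gene's start to 50 bases after it in the gene's own direction, from RefSeq on GRCm38.p6. Capitals mark matches, as they read on the strand shown, to 4 motifs of factors active in airway secretory cells or in the response to oxidants, searched on both strands.
Cbr2, chr11:120731972-120732271, minus strand: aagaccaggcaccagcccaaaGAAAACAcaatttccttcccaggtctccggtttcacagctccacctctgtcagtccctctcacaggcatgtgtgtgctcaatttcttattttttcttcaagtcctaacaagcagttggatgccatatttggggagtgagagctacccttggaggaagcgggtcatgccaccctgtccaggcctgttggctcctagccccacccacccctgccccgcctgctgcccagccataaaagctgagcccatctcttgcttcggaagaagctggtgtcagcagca
Gabrp, chr11:33578908-33579207, minus strand: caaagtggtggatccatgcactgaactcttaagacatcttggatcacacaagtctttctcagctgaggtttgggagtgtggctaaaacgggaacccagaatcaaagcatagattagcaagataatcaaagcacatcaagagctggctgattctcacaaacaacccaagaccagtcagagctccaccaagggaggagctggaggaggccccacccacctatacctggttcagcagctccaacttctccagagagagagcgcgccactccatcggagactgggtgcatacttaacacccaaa
Scgb3a1, chr11:49663345-49663644, plus strand: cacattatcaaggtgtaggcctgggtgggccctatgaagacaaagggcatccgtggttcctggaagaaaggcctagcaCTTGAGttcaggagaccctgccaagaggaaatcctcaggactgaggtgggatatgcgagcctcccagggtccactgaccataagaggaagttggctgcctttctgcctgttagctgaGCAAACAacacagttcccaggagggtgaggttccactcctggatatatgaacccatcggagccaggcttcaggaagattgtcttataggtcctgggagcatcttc
The motifs were TGTTTNC for FOXA, CTCAAG for NKX2-1, TTNNGCAA for C/EBP and TGACNNNGC for NRF2, and no match overlapped another. Cbr2 held 1 FOXA match and Scgb3a1 held 1 FOXA and 1 NKX2-1 match, all on the opposite strand, and the Gabrp window held none of the 4. Of 32851 promoters of this length, 20.5% held the FOXA letters, 15.9% the NKX2-1 letters, 10.8% the C/EBP letters and 12.4% the NRF2 letters. The matches are given as a description of these windows.

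Cbr2, a carbonyl reductase abundant in club cells, lies at chr11:120729489-120732114 on the minus strand. Its normoxic level was 109.3 CPM in Normoxia 6 and 442.8 to 869 CPM in the other 6 libraries, with a median of 676.5. Its hyperoxic level was 129.2 CPM at the lowest (Hyperoxia 1), 225.9 at the median and 393 at the highest. Normoxia 6 lay below every hyperoxic library, and the other 6 normoxic libraries lay above all of them. The fitted log2 fold change was −1.43 (SE 0.371, adjusted p = 0.0110), and −1.30 (SE 0.363, adjusted p = 0.0134) without Hyperoxia 1. Without Normoxia 6 it was −1.61 (adjusted p = 0.000347). With the letter set as a term it was −1.17 (adjusted p = 0.0441), and the call was lost when Hyperoxia 1 was also left out (−0.88, adjusted p = 0.0696).

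The Cbr2 difference was not the same in the 2 letter sets. Within B to M the groups did not overlap, at 663.7 to 869 CPM against 129.2 to 393, and mean log2 CPM differed by −1.91 (−1.60 without Hyperoxia 1). Within O to S, which holds Normoxia 6, it was 0.09. Of the 31-base words in the last 500 bases of the Cbr2 transcript 42.1% also occur in the pseudogene Gm11771, so reads can be split between them. Gm11771 had 0 to 2 counts in a library. For the other 9 members 0% of these words occurred in another gene.

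Aldh1a1 encodes a retinaldehyde dehydrogenase of club cells and lies at chr19:20492715-20643465 on the plus strand. Its normoxic level was 378 CPM at the lowest, 538.3 at the median and 576.5 at the highest. In hyperoxia it was 103.5 CPM at the lowest (Hyperoxia 1), 359.8 at the median and 578.2 at the highest. Of the 6 hyperoxic libraries 3 lay below the normoxic range, and Hyperoxia 2 had the highest value of all 13. Its log2 fold change was −0.58 (95% interval −1.15 to −0.0104, adjusted p = 0.136), and −0.37 (−0.713 to −0.0351, adjusted p = 0.0919) without Hyperoxia 1. Leaving out Hyperoxia 2 in its place gave −0.76 (adjusted p = 0.0457). A pair of genes annotated on the other strand overlap Aldh1a1, and the deposited counts are not stated to use strand. Its neighbour and close paralog Aldh1a7 had 40.34 ± 7.21 CPM in normoxia and 21.62 ± 9.02 in hyperoxia, and was called lower (log2 fold change −0.88, adjusted p = 0.0364), also without Hyperoxia 1 (−0.67, adjusted p = 0.00491). It was not called when Normoxia 1, 2, 3, 4 or 5 or Hyperoxia 3 or 5 was left out (adjusted p from 0.0510 to 0.0724). None of the 31-base words at the 3′ end of either gene occurred in the other.

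Hp encodes haptoglobin, which binds free haemoglobin in plasma and is also made in the airway epithelium. The gene lies at chr8:109575128-109579172 on the minus strand. Normoxic libraries had 103.5 CPM at the lowest, 148 at the median and 168.4 at the highest. Its hyperoxic level was 41.34 CPM at the lowest (Hyperoxia 3), 61.09 at the median and 101.7 at the highest (Hyperoxia 2). The groups did not overlap, and the gap between the nearest libraries was small, from 101.7 to 103.5 CPM. The log2 fold change was −1.16 (SE 0.202, adjusted p = 0.00072), and −1.15 (SE 0.206, adjusted p = 0.000548) without Hyperoxia 1, which at 64.87 CPM was behind only Hyperoxia 2 in its group. Mean log2 CPM differed by −1.25 among B to M, with or without Hyperoxia 1, and by −0.87 among O to S. The 5 hepatocyte and plasma protein markers, albumin among them, summed to 1.87 to 3.06 CPM in normoxia and 0.539 to 5.21 in hyperoxia.

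Gabrp encodes the pi subunit of the receptor for the transmitter GABA, which is found in epithelia. The gene lies at chr11:33550781-33578959 on the minus strand. Its normoxic level was 25.39 CPM at the lowest, 27.6 at the median and 33.08 at the highest, a coefficient of variation of 9.26%. Its hyperoxic level was 7.51 CPM at the lowest (Hyperoxia 1), 11.9 at the median and 17.27 at the highest. No hyperoxic library came within the normoxic range. The fitted log2 fold change was −1.17 (SE 0.205, adjusted p = 0.000725), and −1.06 (SE 0.183, adjusted p = 0.000414) without Hyperoxia 1. In hyperoxia the 3 libraries of B to M were at 7.51 to 10.08 CPM and the 3 of O to S at 13.73 to 17.27. The normoxic libraries showed no such step, at 25.39 to 33.08 and 27.04 to 29.44 CPM. Mean log2 CPM differed by −1.61 among B to M (−1.51 without Hyperoxia 1) and by −0.82 among O to S.

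The goblet cell members were read at low counts. Muc5b, a gel-forming mucin of the airway at chr7:141839070-141873084 on the plus strand, had 8 to 37 counts in each normoxic library and 4 to 14 in each hyperoxic one. In normoxia this came to 2.79 CPM at the lowest, 5.06 at the median and 12.1 at the highest. Its hyperoxic level was 1.51 CPM at the lowest, 2.92 at the median and 3.77 at the highest. Of the 6 hyperoxic libraries 3 lay below the normoxic range. The log2 fold change was −1.07 (95% interval −1.89 to −0.251, adjusted p = 0.0578), and the gene remained uncalled without Hyperoxia 1 (95% interval −1.85 to −0.146, adjusted p = 0.0747). Leaving out Normoxia 2, the lowest normoxic library, gave −1.18 (adjusted p = 0.0425).

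Tff2, a trefoil factor secreted with mucus, lies at chr17:31141049-31144282 on the minus strand. It had 15 to 86 counts in each normoxic library and 0 to 29 in each hyperoxic one. Its normoxic level was 5.60 CPM at the lowest, 9.48 at the median and 28.13 at the highest. Its hyperoxic level was 0 CPM in Hyperoxia 1, where a count of 0 allows up to 1.61 CPM, 4.32 at the median and 7.81 at the highest. Hyperoxia 4 and 5 lay within the normoxic range and the other 4 below it. Its log2 fold change was −1.66 (SE 0.580, adjusted p = 0.0504), just over the threshold, and −1.42 (SE 0.506, adjusted p = 0.0448) without Hyperoxia 1. It was also called when Normoxia 1 (adjusted p = 0.0454), Normoxia 2 (0.0490), Hyperoxia 4 (0.0413) or Hyperoxia 5 (0.0488) was left out.

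Agr2, the disulfide isomerase that helps to fold mucins, lies at chr12:35992907-36004087 on the plus strand. It had 2, 0, 4, 1, 5, 5 and 4 counts in Normoxia 1 to 7, and 3 in Hyperoxia 5, 1 in Hyperoxia 6 and 0 in the other 4 hyperoxic libraries. The sums were 21 and 4 counts, too few for the filter. With no filter the log2 fold change was −2.15 (95% interval −4.04 to −0.262, edgeR adjusted p = 0.129), and −2.01 (−3.95 to −0.0788, adjusted p = 0.149) without Hyperoxia 1. The direction was that of the other 9 genes, and the gene was not called. These fitted values depend on the prior count, and the floor for a count of 0 covers counting error only.

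The members did not all vary together across libraries. After the mean of each group was taken out, the 36 pairs of the 9 genes tested had Pearson correlations of log2 CPM from −0.45 to 0.955 over 13 libraries, with a median of 0.455. Without Hyperoxia 1 they ran from −0.45 to 0.910 over 12 libraries, with a median of 0.377. The values for Scgb1a1 depended on Hyperoxia 1. With Hp the correlation was 0.296 over 13 libraries and 0.910 over 12, and with Cbr2 0.619 and 0.909. With Gabrp it changed sign, from 0.474 to −0.22, and with Muc5b it was −0.0018 and −0.32. All points share their library's scaling. The 5 genes whose pattern was most like that of Scgb1a1 over 13 libraries were Selenbp1 (0.993), Scnn1b (0.993), Ifi27 (0.990), Rps9 (0.990) and Gm10175 (0.989). Over 12 libraries they were Mvb12a (0.978), Rab1b (0.973), Cxx1b (0.969), Rps19 (0.968) and Scnn1b (0.966), so that only Scnn1b, a subunit of the epithelial sodium channel, was in both lists of 5.

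Other genes of the club cell were split. Of 27 listed, 24 were tested, 9 were called lower and 0 higher, with a median log2 fold change of −0.34. Pon1, a lactonase, had 42.03 ± 7.68 CPM in normoxia and 4.14 ± 2.51 in hyperoxia (log2 fold change −3.29, adjusted p = 1.32e-05), with 0 counts in Hyperoxia 1. Aox3, an aldehyde oxidase, had 137.4 ± 20.5 and 35.53 ± 13.9 CPM (−1.96, adjusted p = 1.69e-05). Cldn10, a tight junction claudin, had 65.39 ± 9.79 and 26.69 ± 6.8 CPM (−1.30, adjusted p = 0.00011). Scgb1c1, Cyp2f2, Lypd2, Cyp2s1 and Por were also among those called lower, and among the 15 not called were the detoxifying enzymes Cyp2b10, Cyp4b1, Fmo2 and Ephx1. Without Hyperoxia 1, 9 were called lower, now with Cckar among them, and 2 higher, the glutathione transferases Gsta3 and Gsto1, and the median was −0.22. With any 1 library left out, 7 to 9 were called lower. Por lost its call without Normoxia 1, 3 or 5 or Hyperoxia 3, 4 or 5 (adjusted p from 0.0521 to 0.0631).

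**Figure D4:**
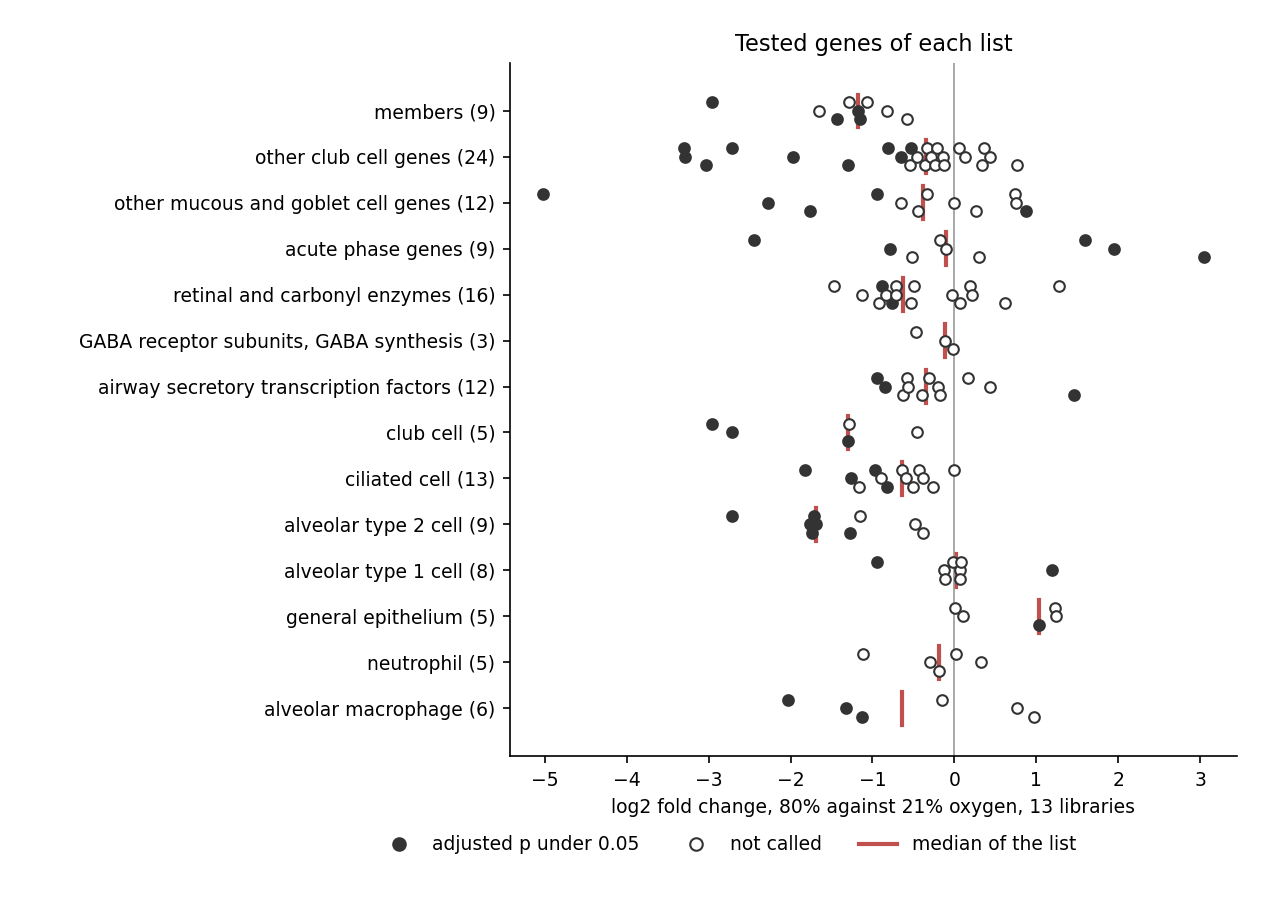
Log2 fold change of hyperoxia against normoxia over 13 libraries for each tested gene of the lists with at least 3 genes tested, with the number tested in brackets, filled points for genes called and the median of each list in red; the vertical place of a point within a list carries no value. The 9 members lie below 0 with a median of −1.17, while the other club cell genes spread on both sides of 0 with a median of −0.34. Members and lists were chosen with earlier results of these data known.

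Other mucous and goblet cell genes were mostly sparse, and 12 of 24 were tested, with 4 called lower, 1 called higher and a median of −0.39. Muc1, a membrane-bound mucin of alveolar and airway epithelium, had 47.44 ± 22.5 CPM in normoxia and 9.68 ± 6.93 in hyperoxia (log2 fold change −2.28, adjusted p = 0.00168). Fcgbp, a mucus protein, had 10.89 ± 3.35 and 5.67 ± 2.31 CPM (−0.94, adjusted p = 0.0259). Pigr, which carries IgA across epithelia, was higher at 32.19 ± 9.91 and 58.84 ± 23.4 CPM (0.87, adjusted p = 0.0244). Bpifb1 and Clca1, chosen here after their values were seen, were the other genes called lower. Clca1 ran from 0.349 to 856.6 CPM in normoxia, with most of its counts in 1 library, and was not called without Normoxia 3 (log2 fold change −3.17, adjusted p = 0.124). Clca1 also lost its call without Normoxia 6 or Hyperoxia 2, 3, 4 or 6 (adjusted p from 0.0512 to 0.0684). Fcgbp lost it without Normoxia 2 or 3 or Hyperoxia 2, 4 or 6 (0.0508 to 0.0754), and Bpifb1 without Normoxia 3, 4 or 5 or Hyperoxia 2, 3, 4 or 6 (0.0617 to 0.104). Pigr lost it without Hyperoxia 2 (0.0592). Over all 13 libraries limma-voom called 2 lower and 1 higher, and limma on the deposited log values 2 lower and 0 higher. With any 1 library left out, 1 to 4 were called lower. Without Hyperoxia 1 the calls were for the same 5 genes, 4 lower and 1 higher.

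Genes of the acute phase, to which Hp belongs, went in both directions. Of 17 listed, 9 were tested, 2 were called lower and 3 higher, and the median was −0.11. Itih4 had 42.34 ± 5.44 CPM in normoxia and 7.82 ± 1.65 in hyperoxia (−2.45, adjusted p = 2.16e-07), and Lbp was the other gene called lower. Serpina3n had 11.24 ± 5.72 and 90.61 ± 54 CPM (3.04, adjusted p = 0.0012). Saa3 had 5.09 ± 2.06 and 19.13 ± 9.6 CPM (1.95, adjusted p = 0.0018), and Lcn2 was the other gene called higher. The same 5 genes were called without Hyperoxia 1, and in each fit that left out 1 library. The list's median changed sign, to 0.04, without Hyperoxia 1.

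Among the 16 enzymes and binding proteins of retinal and carbonyl compounds, all tested, edgeR called 2 lower and 0 higher, with a median of −0.62. DESeq2 called 3 lower and 1 higher, limma-voom 2 and 0, and limma on the deposited log values 4 and 0. At an unadjusted p under 0.05, edgeR had 6 lower and 1 higher. The genes called by edgeR were Aldh1a7, given above, and Dhrs3, a retinal reductase, at 113.1 ± 20.2 CPM in normoxia and 66.91 ± 16.3 in hyperoxia (−0.76, adjusted p = 0.00431). Cbr3, another carbonyl reductase, had 10.04 ± 4.74 and 23.84 ± 14.7 CPM (1.27, adjusted p = 0.0543). It was called higher without Hyperoxia 1 (1.52, adjusted p = 0.00201), where its level was 2.14 CPM. The same 16 genes then had 2 calls lower and 1 higher, with a median of −0.45. Leaving out 1 library in turn gave 1 to 4 calls lower, and Dhrs3 was called in each of these fits.

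Of 16 other GABA receptor subunits and genes of GABA synthesis and transport, 3 were tested and 0 were called by edgeR in either direction, nor at an unadjusted p under 0.05, nor by DESeq2 or limma after adjustment. In limma-voom and in limma on the deposited log values 1 had an unadjusted p under 0.05. Among them were Gabra2 (log2 fold change −0.11, adjusted p = 0.849) and Gabrb1 (−0.02, adjusted p = 0.980). Both overlapped between the groups, unlike Gabrp. The median was −0.11. Without Hyperoxia 1, 5 of the list were tested and 0 called, with a median of −0.28. Of 12 transcription factors of airway secretory cells, all tested, 2 were called lower and 1 higher, with a median of −0.35. Nkx2-1, a factor that lung epithelium depends on, had 103.4 ± 12.9 CPM in normoxia and 53.56 ± 12.2 in hyperoxia (−0.95, adjusted p = 0.000516). Cebpa had 23.4 ± 7.39 and 13.02 ± 3.72 CPM (−0.85, adjusted p = 0.0217), and lost the call without Normoxia 1 or 3 or Hyperoxia 5 (0.0540 to 0.0598). Cebpd had 131.5 ± 46.6 and 361.2 ± 166 CPM (1.46, adjusted p = 0.00238). Without Hyperoxia 1, 4 were called lower and 1 higher, with Ehf and Sox2 added, and the median was −0.27.

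The 6 club cell markers used to check the tissue are no separate evidence, since Scgb1a1 and Scgb3a2 are members and Cyp2f2, Cldn10, Cckar and Upk3a were counted above among other club cell genes. They summed to 14700 to 53390 CPM in normoxia and 525.4 to 10170 in hyperoxia, or 3264 to 10170 without Hyperoxia 1, and Upk3a was too sparse to be tested. Of the other 5, 3 were called lower, and 5 without Hyperoxia 1. Cyp2f2, a cytochrome P450 of club cells, had 677.7 ± 211 CPM in normoxia and 103.1 ± 52.5 in hyperoxia (−2.71, adjusted p = 0.000241). Some markers of other cell types of the lung moved beside these genes, and their part in the results was not tested. Of 13 ciliated cell markers 4 were called lower and 0 higher, led by Rsph1 (−0.97, adjusted p = 0.00114), Ccdc153 (−1.26, adjusted p = 0.00263) and Tppp3 (−1.82, adjusted p = 0.00604), and 7 without Hyperoxia 1. Over 13 libraries DESeq2 called 7, limma-voom 5 and limma on the deposited log values 8. Their summed level was 1794 to 2534 CPM in normoxia and 1254 to 2384 in hyperoxia. Hyperoxia 1 was the highest there and the other 5 reached 1528. Most of this sum was Sec14l3, at 1337 to 1948 CPM in normoxia and 2146 in Hyperoxia 1. Hyperoxia 1 was also highest of its group for Rsph1, Ccdc153 and Hydin. It was lowest for Foxj1 (2.14 CPM), Tppp3 (7.51), Dynlrb2 (0), Cfap126 (2.14), Tmem212 (8.04) and Tekt4 (0). Dnah5, Cdhr3 and Deup1 lay between. Foxj1, the factor that defines ciliated cells, had a log2 fold change of −0.0077, and of 0.26 without Hyperoxia 1. The call of Dnah5, the other of the 4, was lost without Normoxia 4, 6 or 7 or Hyperoxia 3 or 4 (adjusted p from 0.0501 to 0.0558).

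Markers of alveolar type 2 cells moved as well, while 6 of the 8 type 1 markers were not called. Of 9 markers of type 2 cells, the surfactant producers, 6 were called lower and 0 higher, with a median of −1.70, led by Lamp3 (−1.73, adjusted p = 2.01e-07), Abca3 (−1.27, adjusted p = 1.92e-05) and Sftpa1 (−1.70, adjusted p = 3.46e-05). Without Hyperoxia 1, 7 were called lower, with Sftpd added (−0.53, adjusted p = 0.0329), and the median was −1.47. Their summed level was 12910 to 23950 CPM in normoxia and 3439 to 7532 in hyperoxia, with or without Hyperoxia 1. Of 8 markers of type 1 cells 1 was called lower and 1 higher, with a median of 0.02, and of 0.15 without Hyperoxia 1. Rtkn2 was lower (−0.95, adjusted p = 0.0246, and 0.0528 to 0.0726 in the 9 of 13 fits with 1 library left out where it lost the call). Akap5 was higher (adjusted p = 1.78e-05), with 1020 to 1437 CPM in normoxia and 2100 to 3056 in hyperoxia. Cldn18 was not called (−0.12, adjusted p = 0.586). The 8 summed to 3910 to 4391 CPM in normoxia and 4859 to 5746 in hyperoxia. Within this sum Akap5 held the largest difference, at means of 1194 and 2734 CPM. Of 5 markers of epithelium in general 0 were called lower and 1 higher (Krt18, at 1.03, adjusted p = 0.0199, not called by limma-voom or by limma on the deposited log values), and without Hyperoxia 1 Krt19 and Krt8 were also called higher. The 5 summed to 284.9 to 405.6 CPM in normoxia and 216.6 to 861.3 in hyperoxia, or 453.9 to 861.3 without Hyperoxia 1. Epcam, on epithelial cells of all kinds, had a log2 fold change of 0.11.

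Hyperoxia 1 did not have low values for every marker of lung cells. At 3536 CPM it held more Sftpa1 than any other hyperoxic library, and Lamp3 was also highest there. It was lowest of its group for Sftpc (32.7 CPM, against 666 to 2915), Sftpb, Slc34a2 and Napsa. Sftpd, Abca3 and Etv5 lay between. Its summed type 1 markers stood at 5674 CPM, of which Akap5 gave 3056 and Cldn18 1682. Akap5, Cldn18 and Rtkn2 were highest there in its group, and Ager, Hopx, Pdpn, Aqp5 and Clic5 lowest. In Hyperoxia 1 the Krt8 level was 0.536 CPM, against 27.32 to 80.26 in normoxia. Basal cell markers summed to 8.18 to 16.54 CPM in normoxia and 1.61 to 6.80 in hyperoxia (3.47 to 6.80 without Hyperoxia 1), with Dapl1 the only gene tested (−1.49, adjusted p = 0.00751, and −1.36, adjusted p = 0.00915, without Hyperoxia 1). Neuroendocrine markers summed to 10.45 to 30.61 and 9.69 to 35.09 CPM, with Ddc the only gene tested and not called (−0.62, adjusted p = 0.230). Of 5 neutrophil markers tested 0 were called by edgeR and 1 (Mmp9, at −1.12, edgeR adjusted p = 0.0606) by DESeq2 and limma, and 1 of the 5 had an unadjusted p under 0.05. Without Hyperoxia 1, edgeR also called Mmp9 lower (−1.36, adjusted p = 0.0157). S100a9 (−0.30, adjusted p = 0.591) and Retnlg (0.32, adjusted p = 0.695) were not called. The list had sums of 105.6 to 207.6 and 48.25 to 250.1 CPM, the latter 91.59 to 250.1 without Hyperoxia 1. Of 6 alveolar macrophage markers 3 were called lower (Ear2 at −2.04, adjusted p = 0.00318; Siglecf at −1.33, adjusted p = 0.00706; Krt79 at −1.13, adjusted p = 0.0455, 0.0565 without Hyperoxia 1, and called in 3 of the 13 fits with 1 library left out), with sums of 226.6 to 364 and 58.44 to 565.2 CPM. Without Hyperoxia 1, 2 were called lower (Ear2 and Siglecf) and 1 higher (Chil3, at 1.02, adjusted p = 0.000519, against 0.76 and 0.235 with it), and the hyperoxic sums were 304.7 to 565.2 CPM. Marco was at 0.98 (adjusted p = 0.183), and at 1.18 (0.0688) without Hyperoxia 1. Markers of airway cartilage summed to at most 0.595 CPM in normoxia and 2.50 in hyperoxia, with Acan, Matn1 and Comp at 0 in every library. Markers of oesophagus and thyroid summed to at most 1.05 and 0.347 CPM, with Krt13 and Krt6a at 0 in every library.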

How the data were processed

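The authors prepared Quant-seq 3′ libraries from lung RNA and quantified reads with kallisto in BioJupies; the submitters' notes name mm10 and limma 3.54.2. They deposited unfiltered raw counts per gene symbol, and the same counts as log10 values, which are log10 of CPM plus 1 (recomputed to within 8.9e-16). All columns mapped to the 13 samples by label. Libraries held 1607111 to 4540288 counts, and 3 counts, taken as the floor, are 0.656 to 1.84 CPM. Libraries of 1 condition differed by more than sampling noise in all 36 pairs (chi-square per gene at least 3.90).

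Counts were tested with edgeR 4.0.16 in R 4.3.3 (quasi-likelihood, TMM, filterByExpr, Benjamini-Hochberg over all genes tested, adjusted p 0.05), with no covariate. CPM values use TMM-scaled library sizes, log2 CPM a prior count of 2. The fits were also run on simulated counts with the same dispersion for every gene and no outlying library. That setting is simpler than these data, and its outcome is not reported here. Alternatives were DESeq2 1.42.0, limma-voom, limma 3.58.1 on the deposited log values, other scalings and filters, the letter set, a replicate block, fold thresholds of 1 and 1.5, and each library left out. The fits without Hyperoxia 1 under these settings and the secretoglobin ratios were added after seeing the data.

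The members and lists were chosen with earlier results of these data known. Named genes are all 10 members, the 3 tested genes of smallest p in each other list, Aldh1a7, and the 5 genes most like Scgb1a1. Other genes are named to complete a count or as a defining marker, picked with their values in view. Some genes of the lists are not reported here by name. Coordinates and transcripts are from a GRCm38 annotation (GENCODE), matched by symbol, and promoters from RefSeq (GRCm38.p6). Deup1 and Cnmd stand under older symbols. Genome sequence beyond the promoters was not used here.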

Additional observations from a re-analysis of the deposited data

Results flagged for a closer look

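In 4 of 26 groups of libraries examined (the 10 members and 3 secretoglobin ratios in each condition), 1 library lay far from the others by Dixon's criterion at the 95% level. Chance gives about 1 in 20 such groups, here 1.3. Scgb3a1 in Normoxia 5 was 373.7 CPM, against 179.6 in the next library (gap over range 0.628, n = 7). Without Normoxia 5 the log2 fold change of Scgb3a1 was −0.38 (edgeR adjusted p = 0.633). Aldh1a1 in Normoxia 7 was 378.0 CPM, the lowest of its group, against 526.5 in the next (0.748). Agr2 in Hyperoxia 5 was 0.938 CPM, or 3 counts, against 0.219 in the next (0.767), but 3 counts is the floor taken here, so these 6 values do not show a library apart from the others. The log2 ratio of Scgb1a1 to Scgb3a1 in Hyperoxia 2 was 6.375, against 5.674 in the next (0.674), and it still lay below all 7 normoxic libraries. Members were examined as CPM, a scale on which a very low library is hard to single out, and ratios on the log2 scale, so the count says nothing about whether Hyperoxia 1 stood apart.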

How the results depend on the processing

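Over the settings with a test, the 9 members tested had 193 values, and all 193 were negative. Of these 177 kept their side of the threshold, 1 lost a call and 15 gained one. The number called lower was 4 in the reported fit, 7 with DESeq2, 1 at a log2 fold change over 1.5 (Scgb1a1), and 4 to 6 when 1 library was left out. The number called higher was 0 in each of these. Mean log2 CPM of Cbr2 differed by 0.089 within the letters O to S, and lost its call with the replicate block (−1.41, adjusted p = 0.0930).

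All genes called higher numbered 718 with the replicate block, 194 at a log2 fold change over 1.5 and 492 over 1. Those called lower numbered 626, 294 and 681, and both together 1344, 488 and 1173. The reported fit gave 1473 higher and 1346 lower, and with any 1 library left out 1256 to 1934 and 1049 to 1699, or 2305 to 3633 together. Without Hyperoxia 1, the replicate block gave 1060 higher, 897 lower and 1957 in all, and 4 members lower against 6, since Cbr2 (adjusted p = 0.121) and Tff2 (0.0875) were not called. They were also not called there with limma-voom (0.0533 and 0.0735) or the letter set as a term (0.0696 and 0.0927). The replicate numbers do not pair the samples: deviations of same-numbered libraries correlated at −0.33 to 0.27, over 0.1 in 1 of 6 pairs, and 0 hyperoxic libraries correlated best with their own number. The cause of these differences was not tested. Agr2, with 21 and 4 counts, entered only the fits with no filter.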
